A study of Homo sapiens with 18 samples.

Results

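The 31 genes described here encode the subunits of the 26S proteasome: 14 of the core particle (7 of the alpha ring, 7 of the beta ring) and 17 of the regulatory particle (6 ATPases, 3 non-ATPase subunits of the base and 8 of the lid). They were chosen by symbol from the 60252 gene IDs counted in each library, and 31 of 31 were found and passed the filter on low counts, among 21285 genes that did. RNA came from ZR-75-1, an estrogen receptor-positive luminal cell line from breast cancer. Control cells, labelled SHC, and ADAR knockdown cells were compared; ADAR edits adenosine to inosine in double-stranded RNA. Each line was left untreated, given the vehicle DMSO, or given 100 nM triptolide, an inhibitor of RNA polymerase II, for 16 h. The 6 groups held 3 biological replicates each, 18 libraries in all, made from total RNA. How the knockdown was made and whether either line is a clone are not given in the sources used here. All 6 groups were kept in medium with 1% serum for those 16 h.

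The 26S proteasome degrades proteins tagged with ubiquitin. Its core is a barrel of alpha and beta rings with the proteolytic sites inside. The regulatory particle caps the barrel: its base unfolds substrates with a ring of ATPases, and its lid removes the ubiquitin chain. Cells adjust the mRNAs of many subunits together, and the transcription factor NFE2L1 is known to raise them when proteasome activity is blocked.

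Counts in genes came to 26.7e6 to 35.7e6 per library, of which the 31 genes held between 63503 and 128809 counts. Mitochondrial ribosomal RNA took 20.2 to 37.1% of counts without triptolide and 42.7 to 55.2% with it. As a raw share of counts the proteasome genes accounted for 0.272 to 0.409% without and 0.206 to 0.309% with triptolide. Levels below are counts per 1e6 counts (CPM) on library sizes scaled by TMM, which sets the bulk of genes equal between libraries. Scaling instead to the 13 mitochondrially encoded mRNAs shifted the median log2 difference of all genes tested, triptolide minus DMSO, from 0.03 to -0.79 in control cells and from 0.04 to -1.36 in knockdown cells. A rise or fall below is therefore relative to other nuclear genes, not a change per cell, and in bulk RNA fewer cells of a type and less RNA per cell cannot be told apart. All 10 luminal markers examined, KRT8 and ESR1 among them, stood at 1 CPM or more in every group, with sums of 3364 to 7318 CPM. In the same groups 1 of 4 basal or mesenchymal markers (VIM), 1 of 3 stromal markers (COL1A1) and 1 of the 2 endothelial markers found (VWF) reached 1 CPM. Under triptolide 4 of 10 luminal markers fell in each line, where 16% (control) and 18.9% (knockdown) of all genes tested did. Of 2 basal or mesenchymal markers tested 1 rose in each line, where 14.9% and 16.7% of all genes did. No stromal or endothelial marker tested was called. The basal and stromal sums were 2.16 to 7.52 and 13.4 to 33.1 CPM with triptolide, against 1.20 to 4.19 and 8.54 to 22 CPM without it. The part of these markers in the results below was not tested. ADAR mRNA was below its replicate-matched control in 3 of 3 knockdown libraries of every treatment. It averaged 295 ± 87 against 479 ± 184 CPM (SD, n = 3) untreated, and 138 ± 27 against 379 ± 78 CPM under triptolide. The untreated log2 difference was -0.70 (SE 0.33, edgeR adjusted p = 1) and that under triptolide -1.46 (SE 0.34, adjusted p = 0.325, or 0.00019 with the replicate number as a block).

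Per kilobase of the canonical transcript, subunit mRNAs of the same complex stood at unequal levels in untreated control cells. PSMA3, an alpha subunit, was at 162 ± 10.5 CPM per kb (SD, n = 3), and PSMB4, a structural beta subunit, at 156 ± 28.3. PSMC3, an ATPase, followed at 130 ± 21.2 and PSMB3, another structural beta subunit, at 129 ± 22.6. The ranges of mean ± SD overlapped between each of these genes and the next in the order, while those of PSMA3 and PSMC3 were just apart. At the low end of the genes counted without exon sharing were PSMD12 of the lid at 15.1 ± 2.95 and PSMB2 at 15.3 ± 1.78 CPM per kb. The highest level exceeded the lowest 10.5 times among core subunits and 8.59 times among regulatory subunits, leaving out genes with shared exons. With the union of all exons as the length, those ratios were 6.42 and 13.3 and PSMA5 and PSMD6 were lowest, so the order depends on the gene length used.

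Of the 31 genes, 5 share over 50% of the canonical transcript with another gene ID of the same files. PSMA2 shares 100%, PSMA6 81.4% and PSMA1 67% with a longer gene model on the same strand, and PSMC1 shares 83.2% with NRDE2 and PSMD7 51.6% with a noncoding RNA on the opposite strand. The 3 alpha genes stood at 2.12, 7.27 and 5.12 CPM per kb in the untreated control, below the other 28 members. Reads that fit more than 1 gene are usually set aside in such counting, and the strand setting is not given in the sources used here, so the values of these 5 genes are uncertain. None of the 5 was called under triptolide in the main fit, so leaving them out could not change the counts of calls. The median log2 difference of the remaining 26, triptolide minus DMSO, was 0.33 in control and 0.24 in knockdown cells.

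**Figure D1:**
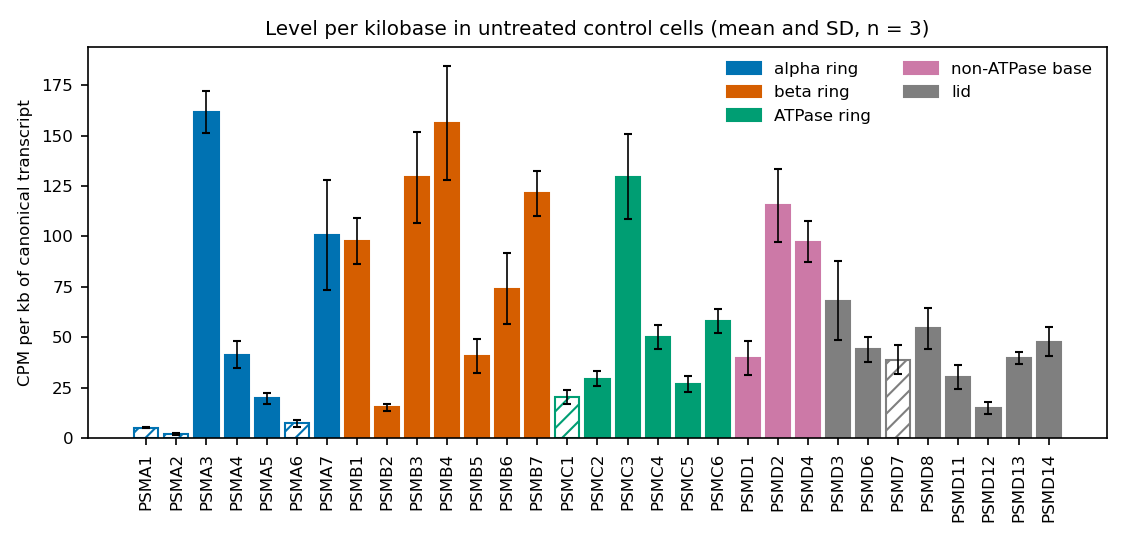
Mean level of each subunit mRNA in untreated control cells, in CPM per kb of canonical transcript, with the SD of 3 libraries as the error bar; colours mark the position in the complex, and hatched bars mark the 5 genes that share over 50% of the transcript with another counted gene. PSMA3 is highest at 162 and PSMA2, which shares all its exons, lowest at 2.12.

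Summed over the 31 genes, the level was 2996 ± 206 CPM in DMSO and 3580 ± 475 CPM in triptolide control cells (SD, n = 3), a ratio of means of 1.20. In knockdown cells the sums were 3014 ± 195 and 3539 ± 437 CPM, a ratio of 1.17. The ratio within a pair of equal replicate number was 1.19, 1.11 and 1.27 in control cells and 1.24, 1.07 and 1.21 in knockdown cells, above 1 in 6 of 6 pairs on the TMM scale. Untreated cells gave 3030 ± 368 (control) and 2889 ± 450 CPM (knockdown). In every one of the 6 groups replicate 2 had the lowest sum and replicate 3 the highest. Among single genes, 7 (PSMA5, PSMB5, PSMB6, PSMC3, PSMC5, PSMD2 and PSMD8) were lowest in replicate 2 of all 6 groups and 8 (PSMA3, PSMA4, PSMB2, PSMC2, PSMD6, PSMD7, PSMD11 and PSMD14) highest in replicate 3. The share of all genes tested with such an order was not counted, so the order is not shown to be particular to these genes. Over all genes tested, libraries of equal number also deviated together, with residuals correlated at 0.43 to 0.85. What sets the replicates apart was not tested. Because equal numbers go together in these data, a second fit took that number as a block.

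**Figure D2:**
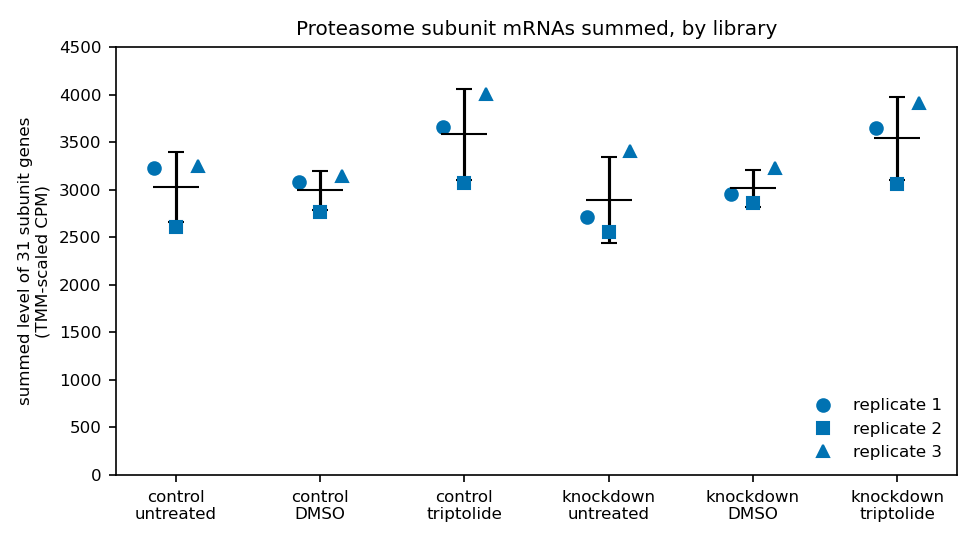
Summed TMM-scaled CPM of the 31 subunit genes in each of the 18 libraries, by group; symbols mark the replicate number, and the bar and whiskers the mean and SD of 3 libraries. Replicate 2 is lowest and replicate 3 highest in all 6 groups, and the triptolide means (3580 and 3539) lie above the DMSO means (2996 and 3014).

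Triptolide against DMSO asks how mRNA levels stand after 16 h with RNA polymerase II inhibited. On the TMM scale PSMB3 and PSMB7 of the beta ring, PSMD2 of the base and PSMD8 of the lid rose in both lines, and PSMC6 of the ATPase ring fell in both (all 31 were below 0 in both lines on mitochondrial scaling). In control cells 4 of 31 rose (those named), where 14.9% of all genes tested rose, and 1 fell (PSMC6), where 16% fell, by edgeR's quasi-likelihood test at an adjusted p under 0.05. In knockdown cells 7 rose (the same 4 with PSMB4, PSMC4 and PSMD4) against 16.7% of all genes, and 2 fell (PSMC6 and PSMC2) against 18.9%. The shares of members called were 12.9% and 3.23% in control cells and 22.6% and 6.45% in knockdown cells. The median log2 difference of the 31 was 0.31 in control and 0.21 in knockdown cells, against 0.03 and 0.04 over all genes tested; relative to the median of all genes it was 0.27 and 0.17, and 0.24 and 0.14 on mitochondrial scaling. The median size of the members' differences was 0.36 and 0.38, against 0.65 and 0.73 log2 over all genes. The genes were not matched for level, and the part of level in these sizes was not tested.

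With the replicate block, 15 members rose and 5 fell in control cells, where 26.1% and 26% of all genes did, and 12 rose and 5 fell in knockdown cells, where 29.1% and 28.1% did. In both lines 11 rose under that fit (PSMA7, PSMB2 to PSMB7, PSMC4, PSMD2, PSMD4 and PSMD8) and 5 fell (PSMC2, PSMC6, PSMD6, PSMD7 and PSMD14). By simple order of the libraries, 11 members were higher in 3 of 3 triptolide libraries than in any DMSO library of control cells (20.9% of all genes) and 4 lower (22.2%). In knockdown cells 10 were higher (24% of all genes) and 3 lower (24.7%). Across the 6 pairs of both lines, 16 members (51.6%) were higher in 6 of 6, as were 29.4% of all genes tested, and 5 (16.1%) were lower in 6 of 6, as were 28.5% of all genes. PSMA5 alone had fitted differences of opposite sign in the lines, 0.17 and -0.05, and neither passed the test.

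The counts rest on few libraries and on the choices of the fit. In control cells 2 rose without DMSO replicate 1 or without triptolide replicate 1, 1 without triptolide replicate 3 and 0 without DMSO replicate 2, while 2 fell without triptolide replicate 3. In knockdown cells 3 rose without DMSO replicate 1, triptolide replicate 1 or triptolide replicate 3 and 2 without DMSO replicate 2, and 1 fell without triptolide replicate 1, triptolide replicate 2, DMSO replicate 2 or DMSO replicate 3. DESeq2 called 9 higher in each line, where it called 3869 and 4317 of all 21285 genes higher. EdgeR without the low-count filter called 0 and 1 higher. Mitochondrial scaling called 0 higher in both lines, with 6 and 26 lower, where 5988 and 11413 of all 21285 genes were lower. Shares over all genes are not given for the fit without the filter or the fits without a library.

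**Figure D3:**
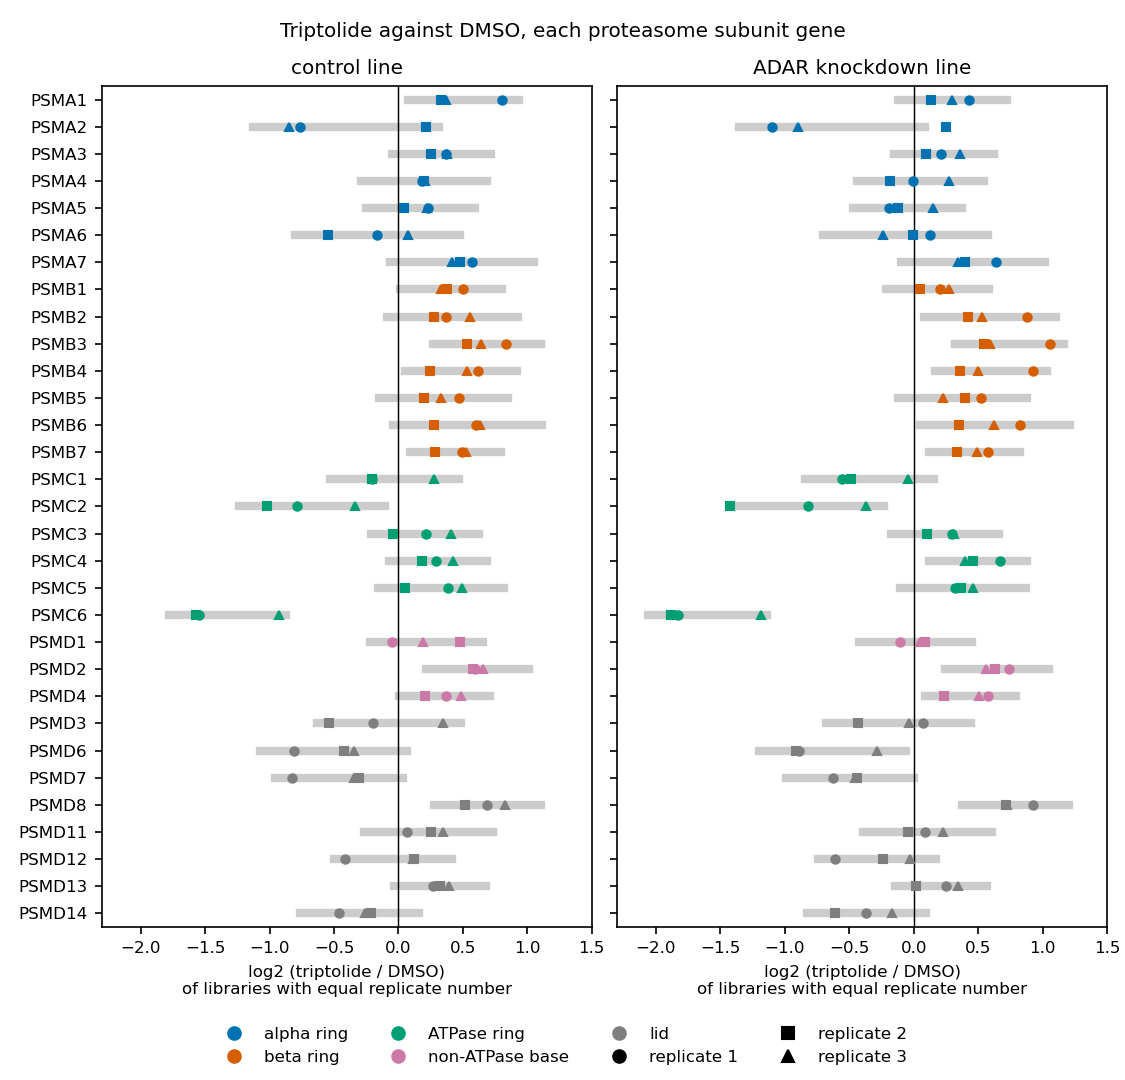
Log2 ratio of triptolide to DMSO for each of the 31 genes, on the TMM scale, in the control line (left) and the knockdown line (right); each symbol is a pair of libraries of equal replicate number, and the grey bar spans the 95% interval of the fitted difference. All beta-ring pairs lie above 0 and all pairs of PSMC2, PSMC6, PSMD6, PSMD7 and PSMD14 below it; on mitochondrial scaling the fitted differences of all 31 are below 0.

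All 7 beta-ring genes had fitted differences above 0 in both lines and in 6 of 6 pairs, with a median of 0.44 in control and 0.59 in knockdown cells on the TMM scale (-0.41 and -0.86 on mitochondrial scaling). Of the 7, 2 rose in control and 3 in knockdown cells, where 14.9% and 16.7% of all genes did. With the replicate block 7 and 6 rose, where 26.1% and 29.1% of all genes did. PSMB3 (ENSG00000277791.4_1, chromosome 17, 36908994 to 36920478, plus strand, GRCh37), a structural subunit, stood at 107, 86.1 and 104 CPM in the DMSO control libraries and at 192, 124 and 162 CPM with triptolide. In knockdown cells it stood at 88, 93.8 and 102 CPM with DMSO and at 184, 137 and 153 CPM with triptolide. The groups did not overlap in either line. The rise was 0.69 log2 (SE 0.19, edgeR adjusted p = 0.0123) in control and 0.74 (SE 0.19, adjusted p = 0.00663) in knockdown cells, and the mitochondrial scaling turned both, to -0.16 and -0.69. The control call was lost without DMSO replicate 2 or triptolide replicate 1 (adjusted p up to 0.0782).

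PSMB7, PSMB6 and PSMB5 carry the proteolytic sites of the core, with trypsin-like, caspase-like and chymotrypsin-like activity. PSMB7 (ENSG00000136930.12_1, chromosome 9, 127115744 to 127177723, minus strand, GRCh37) was at 116, 112 and 122 CPM in DMSO and at 163, 136 and 175 CPM in triptolide control cells. In knockdown cells it was at 110.1, 112 and 121 CPM with DMSO and at 165, 141 and 169.9 CPM with triptolide. Every triptolide library lay above every DMSO library of the same line. Its rise of 0.44 (SE 0.16, edgeR adjusted p = 0.048) and 0.47 (SE 0.16, adjusted p = 0.0316) was close to the threshold: without 5 of the 6 libraries in turn (all but triptolide replicate 2 of each line) the call was lost, with adjusted p up to 0.176 in control and 0.105 in knockdown cells. Mitochondrial scaling gave -0.41 and -0.96. PSMB5 averaged 42.6 ± 5.98 CPM in DMSO and 54.3 ± 12.2 in triptolide control cells, a difference of 0.35 (SE 0.23, adjusted p = 0.265), and its groups overlapped in both lines. PSMB6 went from 60.1 ± 12.5 to 87 ± 27.1 CPM, 0.53 (SE 0.27, adjusted p = 0.139). With the replicate block both passed in both lines, PSMB5 at adjusted p = 0.0289 and 0.0133 and PSMB6 at 0.00229 and 0.000504. PSMB4 passed in knockdown cells, at 0.60 (SE 0.20, adjusted p = 0.0261), but not without DMSO replicate 1, DMSO replicate 2, triptolide replicate 1 or triptolide replicate 3 (adjusted p up to 0.107). In control cells it was at 0.48 (adjusted p = 0.0752, blocked 0.0125), and a difference between the lines was not called by the interaction test.

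The alpha ring, which forms the gate of the barrel, had a median of 0.20 in control and 0.05 in knockdown cells, -0.63 and -1.41 on mitochondrial scaling. None of its 7 genes passed in either line without the block. With it, PSMA1, PSMA3 and PSMA7 passed in control cells and PSMA7 in knockdown cells. PSMA7 averaged 99.6 CPM in DMSO and 140 CPM in triptolide control cells, 0.49 (SE 0.26, adjusted p = 0.16, blocked 0.0129), and 0.46 (blocked adjusted p = 0.017) in knockdown cells. PSMA2, the lowest alpha gene, was at 3.08, 2.75 and 3.06 CPM in DMSO and 1.82, 3.19 and 1.7 CPM in triptolide control cells, so that replicate 2 lay above its DMSO library and the other two below.

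PSMC6 had the largest difference of the 31 in both lines. This ATPase of the base (ENSG00000100519.11_2, chromosome 14, 53173896 to 53195308, plus strand, GRCh37) was at 121, 126 and 118 CPM in DMSO and at 41.5, 42.3 and 62.2 CPM in triptolide control cells. In knockdown cells it was at 127, 122 and 122 CPM with DMSO and at 35.8, 33 and 53.4 CPM with triptolide. In both lines the third triptolide library was the highest of its group and still lay far below every DMSO library. The fall was 2.50-fold (-1.32 log2, SE 0.21, edgeR adjusted p = 0.00018) in control and 3.03-fold (-1.60, SE 0.21, adjusted p = 2.87e-05) in knockdown cells. It passed in both lines with DESeq2, with the replicate block, with each library left out and on mitochondrial scaling (-2.22 and -3.06). The groups rest on 12865 and 3097 counts in control cells, and on 13995 and 2999 in knockdown cells. Untreated cells stood near the DMSO level, at 111, 127 and 137 CPM in control cells and 91.4, 108 and 125 CPM in knockdown cells.

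The other ATPases did not follow PSMC6 as a ring, whose median was 0.09 in control and -0.05 in knockdown cells (-0.81 and -1.50 on mitochondrial scaling). PSMC2 (ENSG00000161057.10_2, chromosome 7, 102969017 to 103010793, plus strand, GRCh37) was at 75.7, 78.7 and 87.7 CPM in DMSO and 43.9, 38.8 and 69.3 CPM in triptolide control cells. In knockdown cells it was at 72, 85.1 and 87.5 CPM with DMSO and at 40.8, 31.7 and 67.6 CPM with triptolide. The groups did not overlap, and again replicate 3 was the highest triptolide library. The difference was -0.67 (SE 0.26, edgeR adjusted p = 0.0596, blocked 0.00079) in control cells and -0.80 (SE 0.26, adjusted p = 0.0233) in knockdown cells. The knockdown call was lost without DMSO replicate 2, DMSO replicate 3, triptolide replicate 1 or triptolide replicate 2 (adjusted p up to 0.112), and the control difference passed without triptolide replicate 3, at -0.98. PSMC4 was higher, from 89.9 to 111 CPM in control cells (0.31, adjusted p = 0.196) and from 87.4 to 124 CPM in knockdown cells (0.50, SE 0.17, adjusted p = 0.0323), the latter not passing without any one of 5 libraries (adjusted p up to 0.158), triptolide replicate 1, 2 and 3 and DMSO replicate 1 and 2. PSMC3 and PSMC5 were between 0.21 and 0.38 and PSMC1 at -0.03 and -0.34, and none of these passed without the block.

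Of the non-ATPase subunits of the base, PSMD2 and PSMD4 were higher with triptolide on the TMM scale and lower on mitochondrial scaling. PSMD2, a scaffold that binds ubiquitin shuttle factors (ENSG00000175166.16_2, chromosome 3, 184016986 to 184026838, plus strand, GRCh37) was at 336, 295 and 353 CPM in DMSO and at 507, 442 and 556 CPM in triptolide control cells. In knockdown cells it was at 323, 298 and 356 CPM with DMSO and at 540.1, 463 and 526 CPM with triptolide. Every triptolide library exceeded every DMSO library by a margin wider than the spread in DMSO. The rise was 1.53-fold (0.61 log2, SE 0.18, edgeR adjusted p = 0.0176) and 1.56-fold (0.64, SE 0.18, adjusted p = 0.0116), turned to -0.23 and -0.79 by mitochondrial scaling. The control call was lost without DMSO replicate 1, DMSO replicate 2 or triptolide replicate 3 (adjusted p up to 0.0736) and the knockdown call without DMSO replicate 2 (adjusted p = 0.0575). PSMD4, a ubiquitin receptor, went from 131 to 168 CPM in control cells (0.36, adjusted p = 0.105) and from 126 to 170.4 CPM in knockdown cells (0.44, SE 0.16, adjusted p = 0.042), a call lost without DMSO replicate 1, 2 or 3 or triptolide replicate 1 or 3 (adjusted p up to 0.143). PSMD1, the other large scaffold, was at 0.22 and 0.01 and did not pass.

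The lid had a median of -0.06 in control and -0.20 in knockdown cells (-0.96 and -1.65 on mitochondrial scaling). PSMD8 (ENSG00000099341.11_2, chromosome 19, 38865203 to 38874490, plus strand, GRCh37) was at 93, 76.4 and 90.4 CPM in DMSO and at 149, 109 and 160.3 CPM in triptolide control cells. In knockdown cells it was at 80, 79.1 and 92.9 CPM with DMSO and at 152, 129.9 and 154 CPM with triptolide. Groups of the same line did not overlap. The rise was 1.61-fold (0.69 log2, SE 0.19, edgeR adjusted p = 0.0107) and 1.73-fold (0.79, SE 0.19, adjusted p = 0.00382), with -0.19 and -0.65 on mitochondrial scaling. The control call was lost without DMSO replicate 2 or triptolide replicate 3 (adjusted p up to 0.0554). Another 3 lid genes were lower in 6 of 6 pairs; on the TMM scale they passed with the replicate block and not without it. On mitochondrial scaling all 3 were lower in both lines without the block, with adjusted p from 0.000119 to 0.0294. PSMD6 averaged 59.8 CPM in DMSO and 42.2 CPM in triptolide control cells (-0.50, SE 0.26, adjusted p = 0.156, blocked 0.00388) and was at -0.63 in knockdown cells (blocked adjusted p = 0.0004). PSMD7, partner of the deubiquitinase subunit, was at -0.46 and -0.50 (blocked adjusted p = 0.00312 and 0.0021) and shares exons as described. PSMD14, the deubiquitinase of the lid, was at -0.30 and -0.36 (blocked adjusted p = 0.0407 and 0.0134).

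**Figure D4:**
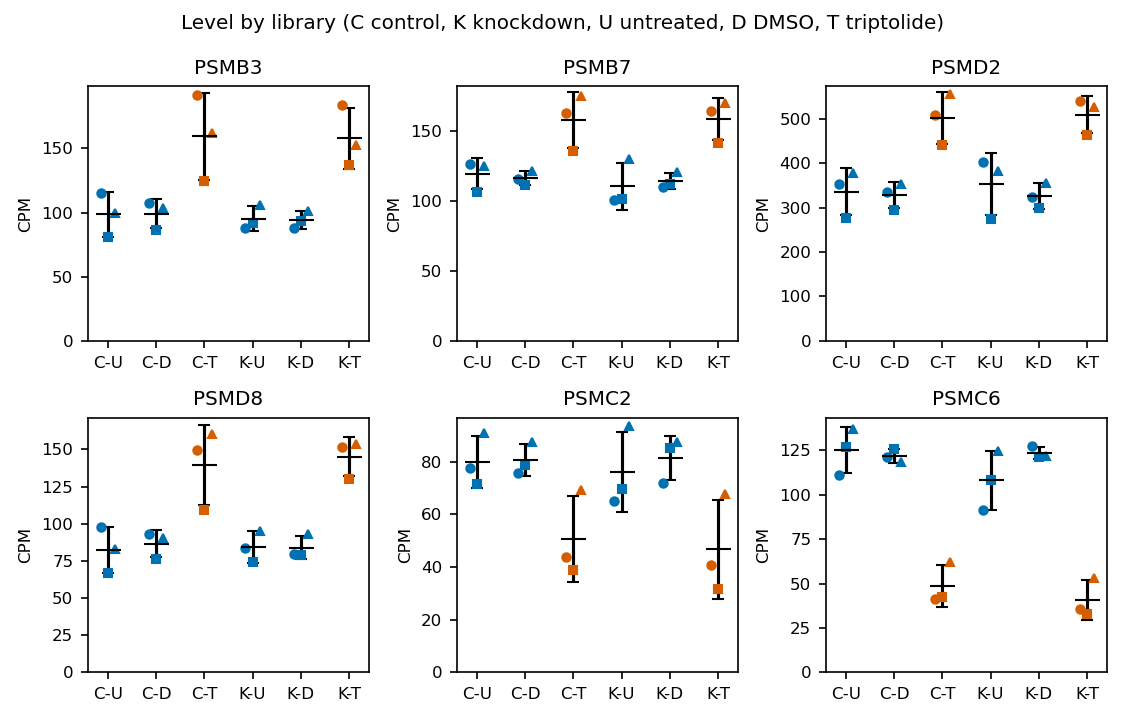
CPM of PSMB3, PSMB7, PSMD2, PSMD8, PSMC2 and PSMC6 in each library of the 6 groups (C control, K knockdown, U untreated, D DMSO, T triptolide); triptolide libraries are orange, circles, squares and triangles are replicates 1, 2 and 3, and the bar and whiskers give the mean and SD of 3. In PSMB3, PSMB7, PSMD2 and PSMD8 the triptolide libraries lie above the DMSO libraries of the same line, and in PSMC2 and PSMC6 below them, on the TMM scale; mitochondrial scaling places the fitted differences of all 6 genes below 0.

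Promoters of genes that moved together were read from RefSeq (GRCh38.p14, 250 bases before to 50 after the start of a gene), which held 26 of the 31 genes. For this, 12 short motifs were searched on both strands after the values above had been seen, several of which overlap each other, so what follows describes these letters and tests nothing. CCGGAAG, a motif of ETS-family factors, stood in 10 of 26 members (38.5%) and in 12.2% of 27305 genes with a promoter in that table. Those 27305 include genes that did not pass the low-count filter, which all members passed, so the sets are unlike. Among genes tested with a promoter, 2585 had the motif and 10461 did not. The shares of genes given for the other motifs below have the same unlike base. It was present in 5 of the 5 members that were lower in 6 of 6 pairs and in 2 of the 11 with a promoter that were higher in 6 of 6. Over all genes tested, the median log2 difference was -0.11 with the motif and 0.01 without it in control cells (2585 and 10461 genes), and -0.15 and 0.00 in knockdown cells. Among members the same medians were -0.23 with and 0.32 without the motif in control cells and -0.35 and 0.27 in knockdown cells. CCGGAAG stood in 8 of 10 members below 0 in both lines and 2 of 15 above 0. Overlapping ETS forms split them less: TTCCGG stood in 8 of 10 and 7 of 15, GGAAG in 10 of 10 and 13 of 15. Of the 12 motifs, all but the cyclic AMP response element (0% against 2.25%) were commoner in members than in all genes with a promoter, tested or not. Among these were the YY1 core ATGGCG (34.6% against 12.7%) and the GC box GGGCGG (69.2% against 48.3%). The core of the antioxidant response element through which NFE2L1 acts, TGACNNNGC, stood in 7 of 26 members (26.9%) against 16.1% of genes: PSMA4, PSMB3, PSMC4, PSMC5, PSMD1, PSMD3 and PSMD12. Of these, 2 (PSMD3 and PSMD12) were below 0 and 5 above 0 in both lines on the TMM scale, and PSMB3 alone was called in both. The windows of 30 bases below show the CCGGAAG match, on either strand and in capitals, in the 5 lower genes and in PSMD8, which was higher, and the antioxidant response core of PSMB3; each reads along the strand of its gene. The plus-strand windows lie at chr14:52707081-52707110 (PSMC6), chr7:103347608-103347637 and chr7:103347640-103347669 (PSMC2), chr16:74296800-74296829 (PSMD7), chr2:161308409-161308438 (PSMD14), chr19:38374542-38374571 (PSMD8) and chr17:38752626-38752655 (PSMB3), and the minus-strand window of PSMD6 at chr3:64023514-64023543.
PSMC6: agacggggccaaCCGGAAGgggagggctca
PSMC2, upstream match: gagcccaatttaCTTCCGGtggggaaggga
PSMC2, downstream match: gggaagacaccaCCGGAAGcaaggaaggtg
PSMD6: gcggagacgggaCCGGAAGccgggccgcag
PSMD7: agggctgacgaaCCGGAAGaagaggaactg
PSMD14: aaactagtgaacCCGGAAGtgcttcgcggc
PSMD8: ggcaaaagccaaCTTCCGGtcaccatcttg
PSMB3: cgcctccgtttTGACTTTGCaaccaaacta

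The members also differed in base composition. GC content of the canonical transcript ranged from 36.4% in PSMC6 to 58.5% in PSMD3, and after PSMC6 the lowest were PSMD12 (37.5%), PSMA5 (37.9%), PSMC2 (38.8%) and PSMA2 (39.5%). Of these, PSMD12 was at -0.04 and -0.28 and PSMA5 at 0.17 and -0.05, and neither passed. Across the 31 genes GC content and the triptolide difference had a Spearman correlation of 0.56 in control and 0.67 in knockdown cells, and of 0.58 and 0.67 over the 26 without shared exons. Over the 14623 protein-coding genes tested it was 0.09 and 0.19. These are descriptions across genes that share libraries, depth and controls, and genes are not replicates. Transcript length had a Spearman correlation of -0.46 and -0.40 with the difference, against -0.15 and -0.19 over protein-coding genes. The part of base composition, or of its reading by the sequencing, in the differences was not tested.

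**Figure D5:**
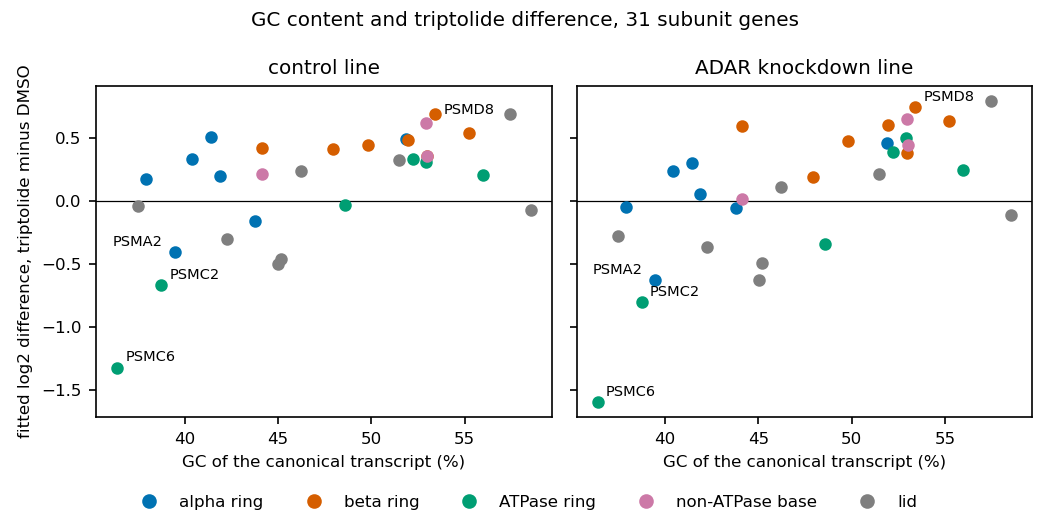
Fitted log2 difference, triptolide minus DMSO, against GC content of the canonical transcript (percent) for the 31 genes, coloured by position in the complex, in the control line (left) and the knockdown line (right). PSMC6 has the lowest GC content (36.4%) and the lowest difference (-1.32 and -1.60); Spearman correlations are 0.56 and 0.67.

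The knockdown comparisons ask whether these mRNAs differ between the lines in each treatment. ADAR mRNA was lower in the knockdown libraries and not absent. None of the 31 was called between knockdown and control cells by edgeR with or without the replicate block, or by DESeq2, and 0 of 31 reached an unadjusted p under 0.05 in any treatment. Over all genes, 0.0987% were called untreated (0.578% with the block), 0.094% in DMSO (0.606%) and 0.0658% under triptolide (0.644%). An unadjusted p under 0.05 was reached by 2.67% of all genes untreated, 2.38% in DMSO and 3.02% under triptolide. At shares this small, 0 of 31 does not set the members apart. The median difference of the 31 was -0.09 untreated, 0.01 in DMSO and -0.03 under triptolide, against -0.02, -0.01 and -0.04 over all genes. Untreated, the lowest were PSMC1 at -0.30 (95% interval -0.79 to 0.20) and PSMA2 at -0.27, and the highest PSMC5 at 0.18 and PSMB2 at 0.13. In DMSO they were PSMA6 at -0.33 and PSMD7 at -0.15, and PSMA1 at 0.19 and PSMA2 at 0.12. Under triptolide they were PSMC1 at -0.28 and PSMC6 at -0.25 (interval -0.70 to 0.19), and PSMB2 at 0.20 and PSMC4 at 0.15. Intervals of this width do not show equal levels in the lines.

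The interaction asks whether the triptolide difference is itself different in the knockdown line. No member was called, with 0% of all genes called without and 0.0047% with the replicate block. An unadjusted p under 0.05 was reached by 0 members and by 0.954% of all genes. The lowest were PSMC1 at -0.31 (interval -1.02 to 0.39) and PSMC6 at -0.27 (-0.91 to 0.36), and the highest PSMC4 at 0.19 and PSMB2 at 0.18. The members' median was -0.04, against -0.02 over all genes. The genes called in knockdown but not in control cells (PSMB4, PSMC2, PSMC4 and PSMD4) are therefore not shown to respond differently in the lines.

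DMSO against untreated cells gives the background of the vehicle. No member was called in either line (0% of all genes called, with or without the replicate block). An unadjusted p under 0.05 was reached by 0 members, and by 0.568% of all genes in control and 0.977% in knockdown cells. The members' medians were -0.01 in control and 0.08 in knockdown cells. In control cells the values ran from PSMD12 at -0.14 to PSMA6 at 0.16. In knockdown cells they ran from PSMC5 at -0.35 to PSMA2 at 0.36.

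The inducible catalytic subunits PSMB8, PSMB9 and PSMB10 replace PSMB5, PSMB6 and PSMB7 in the immunoproteasome. Per kilobase of canonical transcript in untreated control cells, PSMB8 (35.9) stood close to PSMB5 (40.6). On the same length PSMB9 (8.30) was below PSMB6 (74.1) and PSMB10 (4.61) below PSMB7 (121). With the union of all exons as the length, PSMB8 was at 11.6 and PSMB5 at 27.4 CPM per kb. The closeness of PSMB8 and PSMB5 therefore depends on the gene length used. The ratio of PSMB5 to PSMB8 on the canonical length differed by replicate in the untreated control, at 0.862, 1.06 and 1.85. It was highest in replicate 3 of all 6 groups, from 1.40 to 1.85. None of the 3 inducible genes was called in any comparison without the block. With triptolide PSMB8 stood at 98.1, 38.6 and 38.2 CPM in control cells, against 60.2, 39.1 and 26.7 with DMSO (0.47, SE 0.45, adjusted p = 0.459, blocked 0.032). PSMB10, which shares 56.1% of its transcript with another gene, was at 0.68 and 0.64 (blocked adjusted p = 0.0339 and 0.0375), and PSMB9 at 0.16 and -0.07.

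Other genes of the pathway were grouped in 8 lists of 50 genes, 49 of which were tested. SEM1, a small lid subunit outside the 31, rose from 43.3 ± 5.3 to 72.1 ± 14 CPM in control cells (0.73, SE 0.21, edgeR adjusted p = 0.0116) and by 0.87 (adjusted p = 0.00328) in knockdown cells, -0.11 and -0.53 on mitochondrial scaling. ADRM1, a ubiquitin receptor of the base, was at -0.62 in control cells (adjusted p = 0.281, blocked 0.0279). PSMB11, the catalytic subunit of the thymus proteasome, had 35, 13 and 15 counts in the triptolide control libraries and 32, 9 and 7 in the triptolide knockdown libraries, against 0 or 1 in each of the other 12. It passed the filter on low counts only through the triptolide groups, so these counts are given with no test.

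Of the NFE2L1 group 2 of 7 rose and 1 fell in each line: NFE2L1 itself by 0.51 (edgeR adjusted p = 0.0483) and 0.59 (0.0212), its partner MAFG by 1.25 (0.0123) and 1.16 (0.0164), while NFE2L2 fell by 1.22 (0.019) and 1.47 (0.00547). With the replicate block 5 rose in control cells (NFE2L1, DDI2, MAFF, MAFG and MAFK) and 3 in knockdown cells (NFE2L1, MAFF and MAFG), and NFE2L2 fell in both. Over all genes tested 14.9% rose and 16% fell in control cells, and 16.7% and 18.9% in knockdown cells. With the block these shares were 26.1% and 26%, and 29.1% and 28.1%. The counts of this and the following lists stand beside these shares and were not tested against them. On mitochondrial scaling NFE2L1 was at -0.28 and -0.78 and MAFG at 0.45 and -0.26. Of 9 assembly chaperones, 2 rose in control cells (POMP and PSMD10, at 0.48 and 0.56) and none in knockdown cells, where they were at 0.34 and 0.48. PSMG2, another of them, fell in both lines, by 1.44 (adjusted p = 0.00247) and 1.47 (0.00184). PSMG3 fell in knockdown cells, by 1.03 (0.0333), and was at -0.89 (0.0685) in control cells. With the block POMP and PSMD10 rose and PSMG1, PSMG2 and PSMG3 fell in both lines, and PSMD5 fell in knockdown cells.

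Of 10 deubiquitinases and shuttle factors, 0 rose and 2 fell in control and 3 in knockdown cells, where 16% and 18.9% of all genes fell. UBQLN2 at -0.63 and -0.81 and TXNL1 at -0.63 and -1.05 were called in both. With the block 2 rose (UBQLN4, and DDI2, which is in the NFE2L1 group too) and 5 fell in control cells and 1 rose and 4 fell in knockdown cells. Over all genes 26.1% rose and 26% fell with the block in control cells, and 29.1% and 28.1% in knockdown cells. Of 7 p97 genes and adaptors, FAF2 alone passed, and fell by 0.56 (0.018) and 0.64 (0.00649). With the block FAF1 fell in both lines as well and UFD1 rose in knockdown cells. Of 5 genes for activators and an inhibitor, PSME1 and PSME2, subunits of the interferon-inducible activator, were near the threshold in both lines. PSME1 averaged 89.6 CPM in DMSO and 151 CPM in triptolide control cells (0.75, edgeR adjusted p = 0.0577), and 102 and 172 CPM in knockdown cells (0.76, adjusted p = 0.0493). PSME2 averaged 79.1 and 147 CPM in control cells (0.89, adjusted p = 0.0613), and 78.1 and 150.3 CPM in knockdown cells (0.94, adjusted p = 0.0432). With the block both rose in both lines, PSME1 at adjusted p = 0.000288 and 0.000188. Mitochondrial scaling gave 0.00 and -0.61 for PSME1 and 0.10 and -0.45 for PSME2. No gene of these lists was called between knockdown and control cells, for the interaction, or between DMSO and untreated cells, with or without the block.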

How the data were processed

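Raw counts per gene were deposited, 1 library per file, with no normalization. The submitters' processing notes name the build hg19, STAR 2.4.2a, HTSeq 0.6.1, and DESeq2 1.4.5 with R 3.1; the strand setting and annotation are not given in the sources used here. The 5 tallies of reads outside genes were left out: reads that fit several genes took 5.76 to 8.37% and reads without a unique position 10.2 to 22.6%. Of 60252 gene IDs, 58822 (97.6%) were matched to GENCODE release 44 on GRCh37 for symbols, lengths and positions.

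The 18 libraries entered a single edgeR 4.0.16 fit (R 4.3.3; TMM, low-count filter by group, quasi-likelihood test, 12 residual degrees of freedom) over 21285 genes for 8 comparisons. A call is a Benjamini-Hochberg adjusted p under 0.05, two-sided. Alternatives were DESeq2 1.42.0, its size factors in edgeR, no filter, a replicate block, only the libraries compared, scaling to 13 mitochondrial mRNAs and leaving out each library. Dropping genes with shared exons and the canonical transcript length were added after seeing the data. The procedure was also run on simulated data. Those held no replicate effect and few changed genes, unlike these libraries, so that run does not test the block or the scaling.

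Libraries of equal replicate number deviated together: their residuals correlated at 0.43 to 0.85 across genes (45 pairs), against -0.67 to -0.02 for unequal numbers (90 pairs). The numbers were therefore taken as pairs, from this check and not from the labels.

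The members and lists were chosen with earlier results of these data known. All 31 were described by level. Members called in both lines under triptolide, the catalytic subunits, and the 2 highest and 2 lowest members of each knockdown comparison (1 of each for DMSO) were named, with up to 2 other genes of a list in each direction and any further call. PSMB4, PSMC2, PSMC4, PSMD4, PSMA7, PSMD6, PSMD7 and PSMD14 were described after their values were seen. Results of the leukocyte marker list and of the list of ubiquitin genes and activating enzymes are not reported here. p-values measure the spread between these libraries only.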

Additional observations from a re-analysis of the deposited data

Results flagged for a closer look

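In 2 genes every pair of libraries moved one way in one treatment and the opposite way in another, for knockdown against control. The share of all genes tested with such a pattern was not counted. With so few pairs per treatment the pattern can arise without any real difference, so no conclusion is drawn from these 2 genes. For PSMD1, all 3 pairs were on one side of 0 untreated and on the other in DMSO, and the log2 difference of knockdown and control was 0.19 higher in DMSO than untreated; this difference was not tested. For PSMD12, all 3 pairs changed side between DMSO and triptolide, and the difference of -0.24 was that of the interaction, which edgeR did not call (adjusted p = 1, with and without the replicate block). In replicate 1 under triptolide PSMD12 was nearly tied, at 45.7516 CPM in knockdown and 45.7683 CPM in control cells.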

How the results depend on the processing

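Without the low-count filter, 0 members rose and 2 fell in control cells and 1 rose in knockdown cells, with medians of 0.18 and 0.12. DESeq2 called 9 higher in control cells, where it called 3869 of all 21285 genes higher. The replicate block called 15 higher and 5 lower in control cells (26.1% and 26% of all genes). In knockdown cells it called 12 higher and 5 lower (29.1% and 28.1% of all genes). Fitting the libraries of a comparison alone called 4 higher in knockdown cells. The share over all genes is not given for that fit, so this count cannot be set against it. Scaling to mitochondrial mRNAs called 0 higher in both lines and 6 and 26 lower (5988 and 11413 of all 21285 genes), with medians of -0.55 and -1.22. It moved the members' median to 0.59 for knockdown against control in DMSO and to -0.63 for the interaction. For DMSO against untreated it moved that median to -0.18 in control and 0.66 in knockdown cells. The medians of all genes tested moved alike, to 0.56, -0.62, -0.22 and 0.54 in the same order, so these moves are not particular to the members. The cause of these moves was not tested.

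Leaving out each library in turn gave 0 to 6 higher, 1 to 2 lower and a median of 0.168 to 0.356 in control cells, and 2 to 7 higher, 1 to 3 lower and a median of 0.143 to 0.315 in knockdown cells. The medians then ran from -0.066 to 0.0538 for knockdown against control in DMSO, -0.141 to 0.0847 under triptolide, -0.164 to 0.0847 for the interaction, -0.107 to 0.0489 for DMSO against untreated in control and 0.0102 to 0.216 in knockdown cells. Differences that changed sign, of which none was called, were PSMB2 (-0.0014 to 0.304) and PSMC5 (-0.0705 to 0.386) for the untreated knockdown, PSMA2 (-0.0917 to 0.371) for the knockdown in DMSO, PSMB2 for the interaction (-0.0012 to 0.385) and PSMD12 for DMSO in control cells (-0.228 to 0.0355).

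DESeq2's size factors in edgeR moved no count of triptolide calls by more than 1.5 times. Dropping the genes with shared exons could not change these counts, since none of those genes was called in the main fit. The replicate block changed no call of a member in the other comparisons. Of the values for single genes with DESeq2, the replicate block or a library left out, 541 kept direction and side of the threshold, 36 newly passed, 74 no longer passed and 5 changed sign. Among the 31, PSMA2, PSMA6 and PSMA1 rest on the fewest counts.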
